A study of Arabidopsis thaliana with 9 samples.

Results

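The genes described here are the peroxidase superfamily of Arabidopsis thaliana as the deposited expression tables name it. A gene was taken as a member when the first phrase of its putative function held the words "peroxidase superfamily protein". The rule found 67 members among 33323 genes listed. Of the members, 66 carry the plant peroxidase domain in the reference annotation. The other one is DOX1 (AT3G01420), an alpha-dioxygenase, which the table names as a peroxidase superfamily protein. A further 8 genes with the domain bear other names in the table and are not members.

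Class III peroxidases are secreted plant enzymes that carry haem and use hydrogen peroxide to oxidise phenolic compounds. They join monolignols into lignin and cross-link wall proteins and phenolics, which stiffens the wall, and some of them produce reactive oxygen species in the apoplast. In leaves they are known from vascular lignification, from the control of cell size and from responses to wounding and pathogens.

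RNA was sequenced from whole rosettes, without roots, of plants aged 23 days in 3 genotypes with 3 libraries each. They are the mutant lines jazD and jazQ and wild-type Col-0, and no group was treated. The labels give the background of jazQ as Col-0 and that of jazD as Col-0 with an asterisk they do not explain. Each library came from about 20 pooled rosettes, and wild type and mutants shared trays at 20 °C, with days of 16 h of light. The labels do not list the mutated genes; as background, both lines carry mutations in several JAZ genes, which encode repressors of jasmonate signalling, and jazD in more of them than jazQ. The comparisons ask how expression differs when these repressors are lost.

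Library totals ran from 15370271 to 20730459 counts. JAZ1 stood at 9.25% of its Col-0 level in jazD and 10.6% in jazQ. JAZ2 stood at 13.4% in jazD and 156% in jazQ, and JAZ6 at 20.4% in jazD and 95.7% in jazQ. JAZ4 stood at 30% in jazD and 37.2% in jazQ, and JAZ7 at 4.43% in jazD and 315% in jazQ. JAZ3, JAZ5, JAZ9, JAZ10 and JAZ13 were above the Col-0 level in both lines, with JAZ10 at 1300% in jazD and 562% in jazQ. Root markers, of which 1 of 9 could be tested and was not called, summed to 1.52 to 2.05 CPM in jazD, 0.915 to 1.36 CPM in jazQ and 1.06 to 1.28 CPM in Col-0; 3 of the 9 were at 0 counts in jazD, 5 in jazQ and 3 in Col-0. Of 6 flower markers none could be tested. CPM is the count relative to the scaled library size. Changes are log2 fold changes ± standard error from edgeR's quasi-likelihood test, and calls were made where the p adjusted over all 19405 genes tested was under 0.05.

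Leaving DOX1 aside, the members had 933 to 1215 coding bases (median 990) and 43 of them had 4 coding exons. DOX1 had 1920 coding bases in 10 coding exons, and its closest member by coding sequence was only 39.7% identical. The other members each had a closest member at 51.2% identity or more. Chromosomes 1 to 5 held 13, 13, 8, 14 and 19 members, and 20 members lay next to another member.

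Prx37 (AT4G08770) is annotated as an apoplastic peroxidase found mainly in vascular bundles, and plants that overexpress it are dwarfed. In TAIR10.1 it lies at chr4:5598037-5600398 on the minus strand, and its neighbour AT4G08780 at chr4:5604105-5608290 on the plus strand, with their starts facing across 3706 bases. Their coding sequences differ at 65 of 1041 positions (93.8% identity). A second pair, AT4G37520 (chr4:17631500-17633249) and AT4G37530 (chr4:17634696-17636401), lies on the plus strand 1446 bases apart and differs at 75 of 990 positions (92.4% identity). The first 150 coding bases of each gene are shown because reads from such copies have to be divided by these differences; capitals mark the bases at which the genes of a pair differ.
Prx37: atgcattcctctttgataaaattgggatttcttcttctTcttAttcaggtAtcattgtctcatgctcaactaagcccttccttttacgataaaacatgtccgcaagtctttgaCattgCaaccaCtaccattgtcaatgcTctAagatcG
AT4G08780: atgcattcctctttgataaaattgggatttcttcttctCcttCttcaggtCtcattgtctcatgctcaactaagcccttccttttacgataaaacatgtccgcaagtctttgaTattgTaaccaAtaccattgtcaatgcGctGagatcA
AT4G37520: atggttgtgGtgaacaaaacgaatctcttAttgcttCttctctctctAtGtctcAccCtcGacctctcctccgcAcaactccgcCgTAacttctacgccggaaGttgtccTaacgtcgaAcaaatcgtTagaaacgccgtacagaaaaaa
AT4G37530: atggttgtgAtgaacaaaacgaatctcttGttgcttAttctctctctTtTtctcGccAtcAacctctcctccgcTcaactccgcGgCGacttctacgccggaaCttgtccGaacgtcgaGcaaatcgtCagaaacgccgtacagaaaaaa
Within the bases shown the first pair differs at 9 positions and the second at 16. Stretches of 50 bases that both genes share made up 7.8% of Prx37 and 17.6% of AT4G08780, and 6.2% of AT4G37520 and 6.1% of AT4G37530. AT1G05240 and AT1G05250 are identical in their coding sequence (100%), AT2G18140 and AT2G18150 are 91.7% identical, and AT2G38380 and AT2G38390 90.6%. Counts within all of these pairs are uncertain to the extent that the authors' counting divided shared reads. Of the called members, AT5G40150 and AT5G51890 also share 16% and 5.7% of their stretches of 50 bases with a neighbouring gene that is no member, so their counts carry the same uncertainty. The sequences were read from the RefSeq genome.

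Most members were low or silent in rosettes. No count was assigned to 10 members. For the 8 of them that share no stretch of 50 bases with another gene, this allows up to 0.0189 CPM over the 9 libraries, for counting error only. The other 2 are AT1G05250, which shares 100% of its stretches of 50 bases with AT1G05240, and AT2G18140, which shares 9% with AT2G18150. Reads from the shared stretches may have been assigned to these neighbours, and no limit is given for the 2 members. A total of 1 to 50 counts was found for 22 members and more for 35. Enough counts for the test were found for 32 members, and the other 35 had at most 54 counts each. The filter was passed by RCI3, AT3G03670, AT4G08780 and AT5G06730 through the jazD libraries alone, so these 4 had to differ if they were tested at all.

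Per length, PRXR1 (AT4G21960) was by far the most abundant member. It had 1717 ± 153 TPM in jazD, 1195 ± 97.1 TPM in jazQ and 1311 ± 60.25 TPM in Col-0 (SD, n = 3 each), and it made up 78.3 to 83.7% of the summed TPM of all members in each library. The sum over members was 2098 ± 153 TPM in jazD, 1462 ± 69.05 TPM in jazQ and 1619 ± 47.2 TPM in Col-0. The jazD libraries, at 1935, 2122 and 2238 TPM, all lay above those of jazQ, at 1384, 1515 and 1487 TPM, and of Col-0, at 1628, 1568 and 1661 TPM. Without PRXR1 the sum was 381.5 ± 11.2 TPM in jazD, 267 ± 30.1 TPM in jazQ and 308.6 ± 36.6 TPM in Col-0.

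After PRXR1, the levels in Col-0 ran from AT1G71695 (95.6 ± 8.23 TPM) and AT3G28200 (80.5 ± 26.95 TPM) to AT4G37520 (16.5 ± 3.19 TPM) and AT5G51890 (13.3 ± 1.35 TPM). AT1G71695 and AT3G28200 overlapped between their Col-0 libraries, and so did AT4G37520 and AT5G51890. The order changed in jazD, where Prx37 ranked 3 at 45.0 ± 5.37 TPM, followed by AT4G37520 at 44.2 ± 10.98 TPM and AT2G37130 at 38.8 ± 2.21 TPM. The jazD libraries of Prx37, AT4G37520 and AT2G37130 overlapped, so the order among them is not settled. In jazQ, Prx37 had less than 1 TPM in every library.

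**Figure D1:**
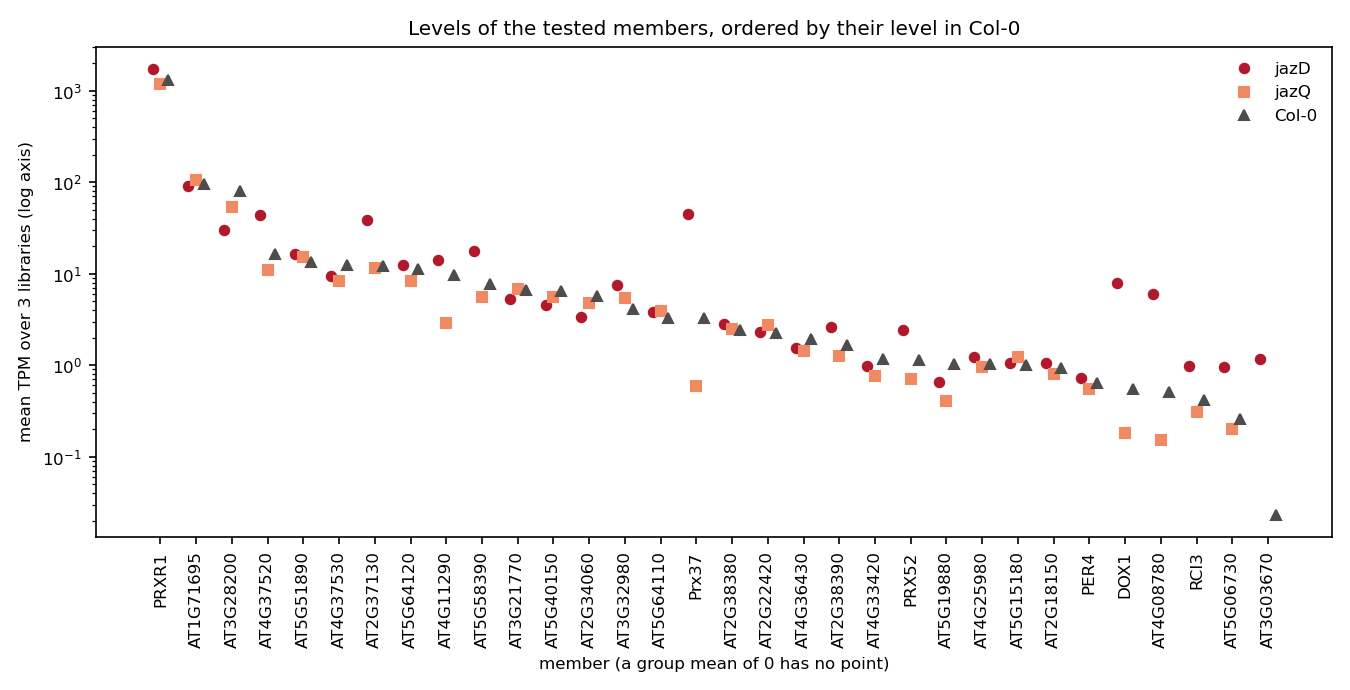
Mean TPM over 3 libraries (log axis) of each tested member in jazD (circles), jazQ (squares) and Col-0 (triangles), ordered by the level in Col-0. PRXR1 stands highest in every genotype, and Prx37 stands at 45.0 TPM in jazD against 3.28 TPM in Col-0.

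In jazD against Col-0, 14 members rose and 3 fell among the 32 tested, and 15 were not called. The members called were 53.1% of those tested, where 25.8% of all genes tested were called (13.3% higher and 12.5% lower). Of the 14 rises, 4 are the members that passed the filter through jazD alone. Without these, 10 of 28 members rose and 3 fell, so that 46.4% were called. This count was added after the data were seen. The other genes were not reduced in the same way, so the 25.8% is no background for the 46.4%. By at least 2-fold, 10 of the 32 rose and 1 fell, beside 4.07% of all genes that rose and 1.98% that fell so far. All 4 members that passed the filter through jazD alone are among these 10. The median log2 change was 0.32 over the tested members and 0.00 over all genes tested. With limma on log2(TPM + 1) the same 14 members rose and the same 3 fell, while the share of higher calls among all called genes was 36.7%, against 51.5% in the edgeR fit. Restricted to a mean of at least 5 CPM over all libraries, 9 of 15 members rose and 2 fell. DOX1 and Prx37, both among these 9, averaged under 5 CPM in jazQ and in Col-0. They passed this filter through jazD, which set their direction. The 25.8% above is no background for this filter, and the share of all genes called under it is not given here. The median log2 change under it was 0.468 over members and -0.004 over all genes. In whole rosettes, fewer cells of a type and less RNA per cell cannot be told apart.

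Prx37 had 43.6, 40.35 and 49.7 CPM in jazD, 0.732, 0.118 and 0.915 CPM in jazQ, and 3.28, 3.36 and 2.59 CPM in Col-0. The 3 genotypes did not overlap, with jazD highest and jazQ lowest. It rose in jazD against Col-0 by 3.86 ± 0.20 (edgeR adjusted p = 3.58e-07). Its neighbour AT4G08780 had 4.38, 4.56 and 6.04 CPM in jazD, 0.0665, 0.118 and 0.145 CPM in jazQ, and 0.288, 0.550 and 0.370 CPM in Col-0. The genotypes stood in the same order, again without overlap. AT4G08780 rose in jazD against Col-0 by 3.62 ± 0.26 (edgeR adjusted p = 3.68e-07), but it passed the filter through jazD alone, which set the direction.

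The 300 bases before the annotated starts of these neighbours are shown because both rose; they were 52.0% identical when aligned. They lie in TAIR10.1 at chr4:5600399-5600698 (minus strand, Prx37) and chr4:5603805-5604104 (plus strand, AT4G08780), and capitals mark a GCC-box.
Prx37 upstream: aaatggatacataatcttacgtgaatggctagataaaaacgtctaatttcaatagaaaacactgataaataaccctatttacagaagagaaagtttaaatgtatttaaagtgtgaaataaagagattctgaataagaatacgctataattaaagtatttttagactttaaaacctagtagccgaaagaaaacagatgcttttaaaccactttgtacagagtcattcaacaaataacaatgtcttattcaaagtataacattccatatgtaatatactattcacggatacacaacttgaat
AT4G08780 upstream: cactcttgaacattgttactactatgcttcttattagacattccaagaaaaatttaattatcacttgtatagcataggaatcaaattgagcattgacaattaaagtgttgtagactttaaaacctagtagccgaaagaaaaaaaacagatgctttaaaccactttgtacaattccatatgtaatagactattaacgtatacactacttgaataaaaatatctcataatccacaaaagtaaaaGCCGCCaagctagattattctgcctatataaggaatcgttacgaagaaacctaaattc
Motifs were searched on both strands of such windows. The GCC-box GCCGCC, bound by ethylene response factors, was found for 1 of the 14 members that rose and for 2.3% of 27443 protein-coding genes. The G-box CACGTG, bound by MYC factors, was found for none of the 14 and 7.1% of all genes. The related AACGTG was found for 1 of the 14, AT5G06730, and 8.7% of all genes, and the W-box core TTGAC for 4 of the 14 and 50.4% of all genes. Among the 32 tested members the shares were 3.1% for the GCC-box, 0.0% for the G-box, 3.1% for AACGTG and 34.4% for the W-box core. A match or its absence describes only the letters of these windows.

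The second pair of neighbours split. AT4G37520 had 60.45, 38.5 and 41.8 CPM in jazD, 15.0, 8.09 and 10.2 CPM in jazQ, and 19.6, 17.2 and 13.0 CPM in Col-0. The jazD libraries were all highest, and it rose against Col-0 by 1.503 ± 0.27 (edgeR adjusted p = 0.00581). AT4G37530 had 11.1, 7.25 and 8.98 CPM in jazD, 9.31, 6.08 and 7.42 CPM in jazQ, and 13.1, 11.98 and 8.76 CPM in Col-0. Its genotypes overlapped, and its change in jazD against Col-0 was -0.30 ± 0.20 (edgeR adjusted p = 0.322).

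DOX1, which starts the oxidation of fatty acids and is the member without the peroxidase domain, had 8.81, 11.75 and 22.75 CPM in jazD, 0.399, 0.413 and 0.145 CPM in jazQ, and 1.15, 0.734 and 1.00 CPM in Col-0. The jazD libraries were all above the others, with replicate 3 the highest. DOX1 rose in jazD against Col-0 by 3.89 ± 0.46 (edgeR adjusted p = 0.000497). DOX2, the other alpha-dioxygenase and no member, rose by 0.87 ± 0.08 (edgeR adjusted p = 2.47e-06).

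AT3G03670 was almost confined to jazD in these libraries, with 20, 19 and 20 counts in jazD, 0 counts in every jazQ library, and 0, 1 and 0 counts in Col-0. The ratio of jazD to Col-0 was 58.3, with a 95% interval of 10.5 to 2300 from the exact Poisson limits of the single Col-0 count. Against jazQ it was at least 19.4-fold higher, taking 3 counts over the jazQ libraries as the limit. Both differences were called (edgeR adjusted p = 0.000103 against Col-0 and 6e-05 against jazQ). AT3G03670 passed the filter through jazD alone, so the direction of both was set by the filter.

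AT2G37130 had 42.6, 40.4 and 44.25 CPM in jazD, 11.0, 11.3 and 13.8 CPM in jazQ, and 12.9, 11.0 and 13.6 CPM in Col-0. The jazD libraries stood apart, while jazQ and Col-0 overlapped. It rose in jazD against Col-0 by 1.76 ± 0.10, with the smallest adjusted p of the members (edgeR, 3.39e-08). AT5G58390 had 15.7, 16.7 and 19.4 CPM in jazD, 5.65, 4.72 and 5.25 CPM in jazQ, and 7.14, 7.09 and 7.07 CPM in Col-0. All 3 genotypes were apart, and it rose in jazD against Col-0 by 1.28 ± 0.11 (edgeR adjusted p = 1.22e-06). AT3G32980 had 8.59, 8.42 and 8.69 CPM in jazD, 5.79, 6.49 and 5.35 CPM in jazQ, and 4.89, 4.40 and 3.96 CPM in Col-0. Here jazQ lay between the other genotypes, and the rise in jazD against Col-0 was 0.96 ± 0.12 (edgeR adjusted p = 6.24e-05).

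PRXR1 had 1987, 2260 and 2327 CPM in jazD, 1362, 1479 and 1540 CPM in jazQ, and 1558, 1550 and 1656 CPM in Col-0. Its rise in jazD against Col-0 was small beside those above, 0.46 ± 0.07, and without overlap (edgeR adjusted p = 0.000373). AT1G71695, the second most abundant member, had 95.8, 102.1 and 93.2 CPM in jazD, 116.4, 104.1 and 103.1 CPM in jazQ, and 99.5, 87.1 and 101.4 CPM in Col-0. The jazD and Col-0 libraries overlapped, with a change of 0.01 ± 0.07 (edgeR adjusted p = 0.914).

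Among 10 peroxidases listed for lignification, 6 were tested and 2 rose in jazD against Col-0, where 13.3% of all genes tested were called higher. PRX52 (AT5G05340) had 2.11, 2.46 and 2.54 CPM in jazD, 0.931, 0.236 and 0.867 CPM in jazQ, and 0.979, 1.10 and 1.11 CPM in Col-0. The jazD libraries were all highest, and the rise was 1.15 ± 0.30 (edgeR adjusted p = 0.0127). AT5G51890, annotated for lignification of tracheary elements in roots, had 15.2, 16.7 and 15.35 CPM in jazD, 14.7, 14.3 and 13.0 CPM in jazQ, and 12.7, 10.9 and 13.1 CPM in Col-0. Its libraries of jazD and Col-0 did not overlap, and it rose by 0.36 ± 0.10 (edgeR adjusted p = 0.013). AT5G51890 lies in a stretch of chromosome 5, AT5G44490 to AT5G55790, picked after its values were seen, in which 37.5% of 863 tested genes were called in this comparison and 25.3% outside it. The part of that stretch in its rise was not tested. PRX71 (AT5G64120), another lignification peroxidase, changed by 0.24 ± 0.14 and was not called (edgeR adjusted p = 0.229).

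Of 5 peroxidases listed for the Casparian strip, the lignin band of the root endodermis, 2 were tested and called higher in jazD against Col-0. Over all genes tested, 13.3% were called higher. RCI3 (AT1G05260), known as inducible by cold, had 0.702, 0.877 and 1.24 CPM in jazD, 0.0665, 0.354 and 0.434 CPM in jazQ, and 0.403, 0.367 and 0.370 CPM in Col-0. These are low counts, 13 to 22 in jazD libraries and 6 to 7 in those of Col-0, and the rise of 1.29 ± 0.42 was close to the threshold (edgeR adjusted p = 0.0379). RCI3 passed the filter through jazD alone, and it was not called by DESeq2 (adjusted p = 0.0961) or limma-voom (adjusted p = 0.0557). AT4G11290 had 13.5, 13.7 and 13.9 CPM in jazD, 1.93, 2.72 and 3.47 CPM in jazQ, and 9.27, 7.64 and 10.0 CPM in Col-0. The 3 genotypes were apart, with jazQ lowest, and the rise in jazD against Col-0 was 0.61 ± 0.14 (edgeR adjusted p = 0.00572). Peroxidases of root hairs, 6 listed, had too few counts for the test.

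AT5G06730 was a low member, with 1.40, 1.05 and 0.790 CPM in jazD, 0.333, 0.177 and 0.145 CPM in jazQ, and 0.230, 0.428 and 0.158 CPM in Col-0. The jazD libraries were above all others, and it rose against Col-0 by 2.00 ± 0.42 (edgeR adjusted p = 0.00347). AT5G06730 passed the filter through jazD alone, which set the direction.

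**Figure D2:**
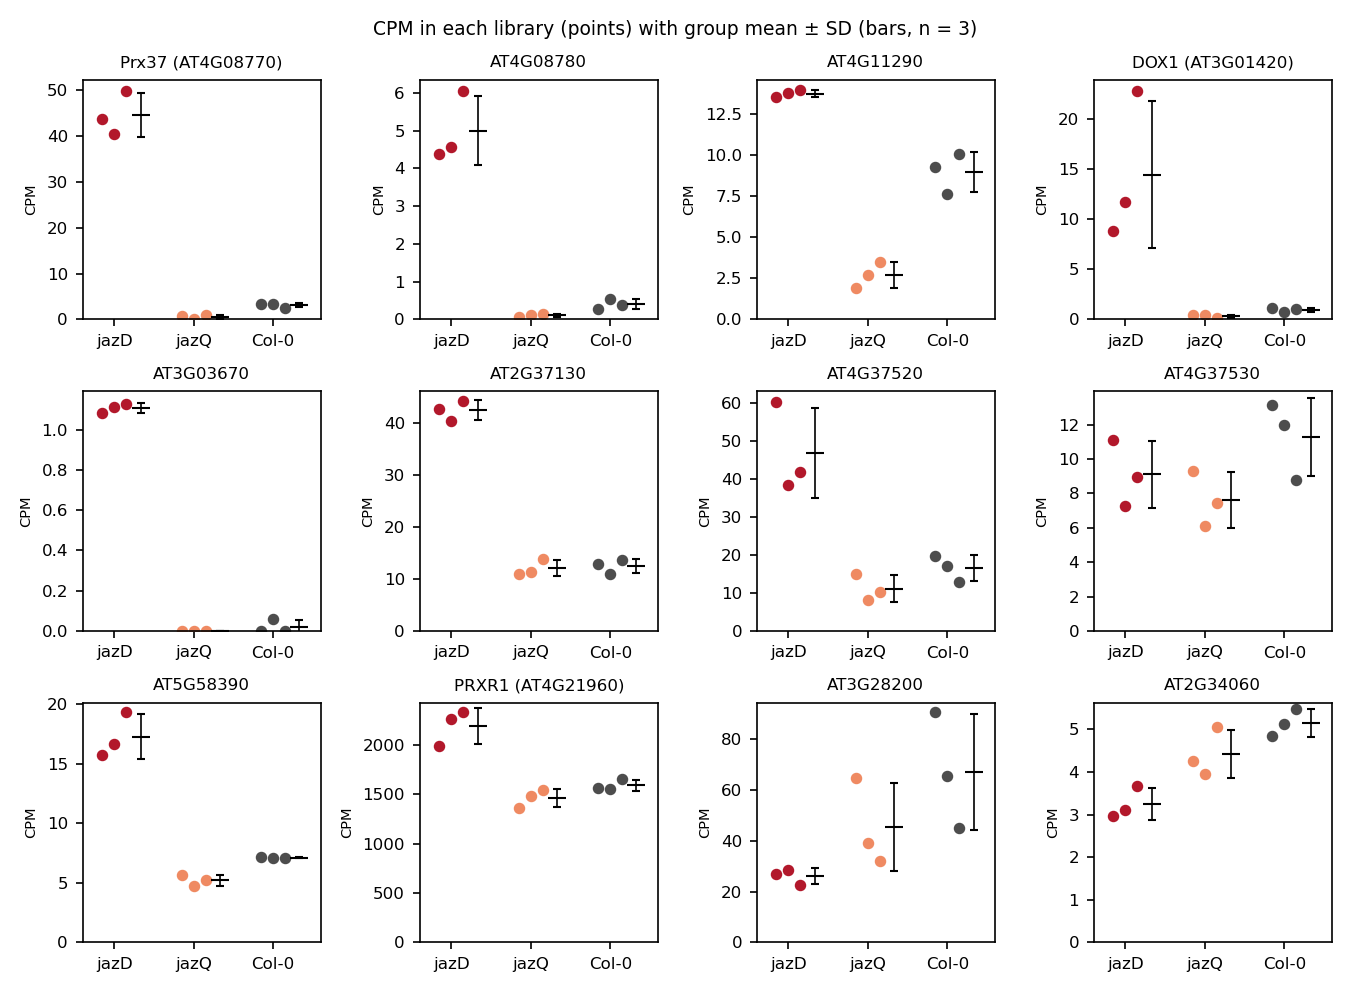
CPM (linear axes from 0) of 12 members in each library of jazD, jazQ and Col-0, with the mean ± SD of each genotype beside the points. Prx37, AT4G08780 and AT4G11290 are highest in jazD and lowest in jazQ, while AT3G28200 is lowest in jazD.

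The members that fell numbered 3. AT3G28200 had 27.0, 28.65 and 22.7 CPM in jazD, 64.7, 39.2 and 31.8 CPM in jazQ, and 90.7, 65.5 and 45.0 CPM in Col-0. The jazD libraries were all lower than those of Col-0, whose own values spread widely, and it fell by 1.36 ± 0.35 on the log2 scale (edgeR adjusted p = 0.0306). That call was lost without Col-0 replicate 1 or 2 or without any 1 of the jazD replicates. AT2G34060 had 2.97, 3.10 and 3.67 CPM in jazD, 4.26, 3.95 and 5.06 CPM in jazQ, and 4.84, 5.14 and 5.49 CPM in Col-0. It was lowest in jazD and fell against Col-0 by 0.67 ± 0.15 (edgeR adjusted p = 0.00477). AT5G40150 had 5.19, 5.26 and 6.27 CPM in jazD, 7.32, 6.73 and 5.88 CPM in jazQ, and 7.89, 7.40 and 7.44 CPM in Col-0. All jazD libraries were below those of Col-0, with a fall of 0.44 ± 0.12 (edgeR adjusted p = 0.0169), and this call was lost without Col-0 replicate 1 or jazD replicate 1 or 2.

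The 15 members not called changed by between -0.57 and 0.72 on the log2 scale. The highest of these was AT2G38390, with 2.55 ± 0.04 CPM in jazD and 1.56 ± 0.67 CPM in Col-0 (edgeR adjusted p = 0.0669). It was called by limma-voom (adjusted p = 0.0379) and by edgeR without Col-0 replicate 2 (adjusted p = 0.00804). The lowest was AT5G19880, with 0.658 ± 0.0564 CPM in jazD and 0.992 ± 0.498 CPM in Col-0 (edgeR adjusted p = 0.332). Of the lignification list, PER4 (AT1G14540) changed by 0.26 ± 0.42, AT2G22420 by 0.12 ± 0.20 and AT4G33420 by -0.14 ± 0.61; none of them was called. AT4G33420 had 1.46, 0.877 and 0.508 CPM in jazD and 1.96, 0.734 and 0.475 CPM in Col-0, a spread within each genotype that exceeded the difference between them.

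Among the members too low for the test, AT1G68850 had the most counts in jazD, 22 over its 3 libraries against 15 in Col-0. AT5G64100, a root hair peroxidase, had 2 counts in jazD, 6 in jazQ and 12 in Col-0. By library these were 1, 1 and 0 counts in jazD and 4, 3 and 5 counts in Col-0. AT3G49960, annotated as enriched in root hairs, had 12 counts in jazD, 18 in jazQ and 18 in Col-0. PER64 (AT5G42180), which acts in the Casparian strip, had 2 counts in jazD, 2 in jazQ and 1 in Col-0.

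**Figure D3:**
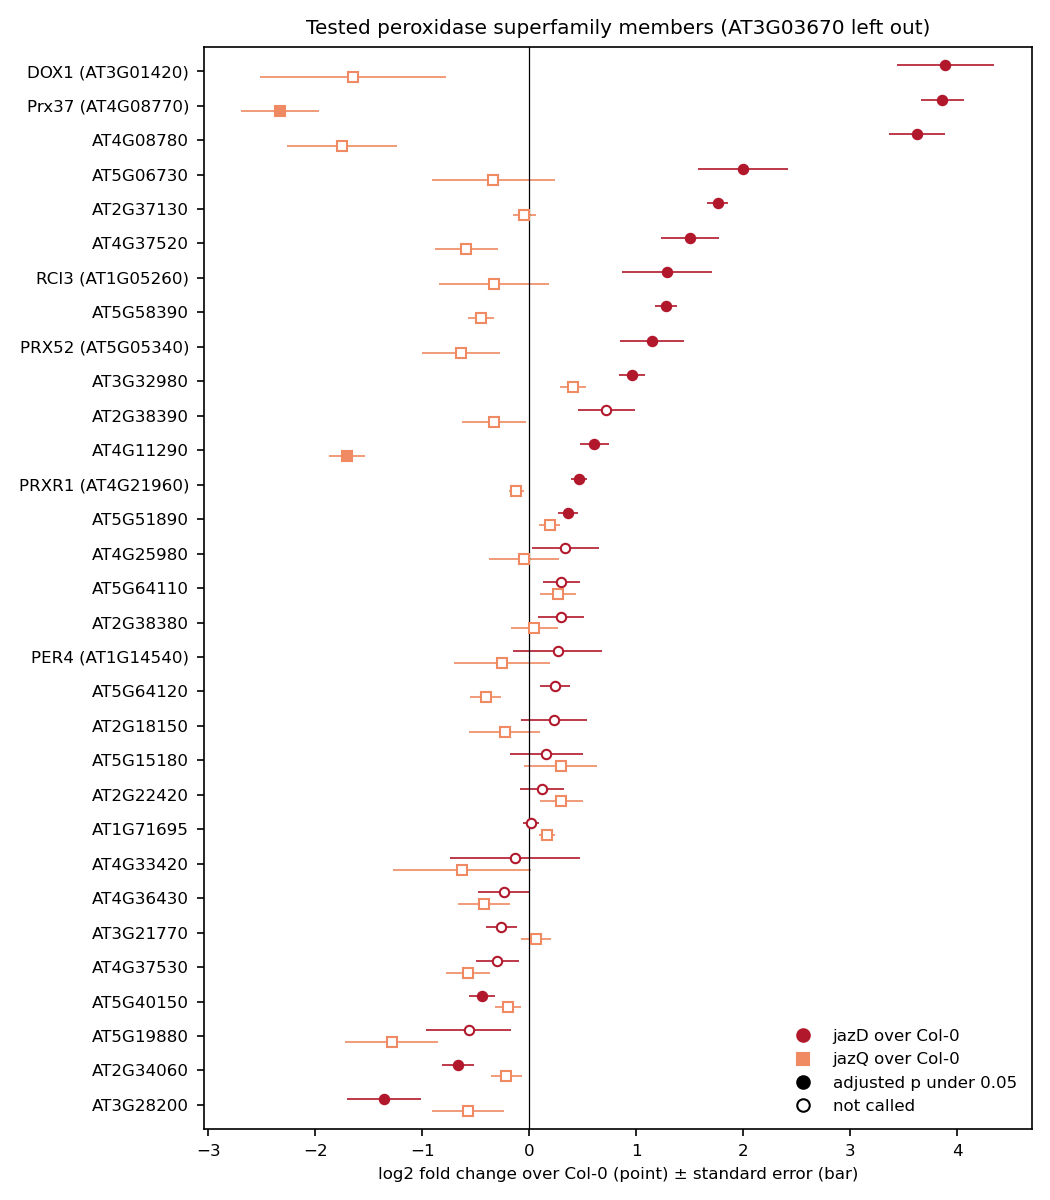
Log2 fold change over Col-0 (points, bars ± standard error) of the tested members other than AT3G03670, in jazD (circles) and jazQ (squares), with filled symbols at an adjusted p under 0.05. The jazD points run from 3.89 for DOX1 to -1.36 for AT3G28200, and the only filled jazQ points are Prx37 and AT4G11290, both below 0.

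In jazQ against Col-0, which uses the same Col-0 libraries, 2 members fell and 0 rose by edgeR. The members called were 6.25% of those tested, where 1.27% of all genes were called (0.861% higher and 0.412% lower). At an unadjusted p under 0.05, 2 members were higher and 7 lower, and DESeq2 and limma-voom also called 0 higher and 2 lower. Both falls were at least 2-fold, beside 0.113% of all genes that fell and 0.263% that rose so far. The median change was -0.33 over the tested members and -0.01 over all genes tested. Prx37 averaged 0.588 ± 0.418 CPM in jazQ and 3.08 ± 0.426 CPM in Col-0 and fell by 2.33 ± 0.36 on the log2 scale (edgeR adjusted p = 0.0118); the call was lost without Col-0 replicate 1 or 2. AT4G11290 averaged 2.70 ± 0.770 CPM in jazQ and 8.98 ± 1.22 CPM in Col-0 and fell by 1.70 ± 0.17 (edgeR adjusted p = 0.000157). AT4G08780 and DOX1 were lower in every jazQ library than in any Col-0 library, but neither change was called, at -1.75 ± 0.52 and -1.65 ± 0.87 (edgeR adjusted p = 0.149 and 0.511). PRXR1 differed by -0.12 ± 0.07 and AT2G37130 by -0.05 ± 0.11, neither of them called.

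In jazD against jazQ, 15 members rose and 1 fell. The members called were 50% of those tested, where 28.8% of all genes were called (15% higher and 13.8% lower), and 12 members rose and 0 fell at least 2-fold, beside 4.17% of all genes that rose and 1.52% that fell so far. The 12 include the 4 members that passed the filter through jazD alone. Without these 4, 11 of 28 members rose and 1 fell (42.9%). The other genes were not reduced in the same way, so the 28.8% is no background for the 42.9%. The largest rises with counts in both genotypes were Prx37 at 6.19 ± 0.26 (edgeR adjusted p = 7.26e-08), DOX1 at 5.53 ± 0.56 (edgeR adjusted p = 0.000205) and AT4G08780 at 5.37 ± 0.33 (edgeR adjusted p = 7.6e-08). Next came AT5G06730 at 2.33 ± 0.44 (edgeR adjusted p = 0.00151) and AT4G11290 at 2.31 ± 0.16 (edgeR adjusted p = 2.9e-07). PRX71 and AT2G38390, not called against Col-0, rose against jazQ. PRX71 averaged 12.95 ± 0.719 CPM in jazD and 8.33 ± 2.12 CPM in jazQ (0.65 ± 0.14, edgeR adjusted p = 0.00436). AT2G38390 averaged 2.55 ± 0.04 CPM in jazD and 1.21 ± 0.307 CPM in jazQ (1.05 ± 0.28, edgeR adjusted p = 0.0125). The 1 fall was AT2G34060, by 0.45 ± 0.15 on the log2 scale (edgeR adjusted p = 0.0372), and 6 of 17 alternatives lost that call.

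Related genes outside the members gave the following, beside 13.3% of all genes called higher and 12.5% called lower in jazD against Col-0. Of the 8 other genes with the peroxidase domain, 4 were tested, and PRXCA (AT3G49110) and PRXCB (AT3G49120), known for the apoplastic oxidative burst, rose in jazD against Col-0 by 2.66 ± 0.07 and 1.51 ± 0.08 (edgeR adjusted p = 1.93e-11 and 1.15e-08). In jazQ against Col-0, 0.412% of all genes were called lower. PRXCA was called lower there, at -0.66 ± 0.07 (edgeR adjusted p = 0.000383), and PRXCB was not called. Among 10 NADPH oxidases, which make the superoxide that yields hydrogen peroxide, 3 were tested and 1 rose in jazD against Col-0. RBOHD (AT5G47910) averaged 240.2 ± 26 CPM in jazD and 63.0 ± 10.6 CPM in Col-0 (1.93 ± 0.16, edgeR adjusted p = 5.43e-05). It lies in the chromosome 5 stretch named above, in which 37.5% of tested genes were called and 25.3% outside it. The part of that stretch in the rise of RBOHD was not tested. Of the 3 catalases, which remove hydrogen peroxide, CAT3 rose by 1.21 ± 0.09, while CAT2 fell by 0.64 ± 0.13 and CAT1 fell by 0.22 ± 0.07 (edgeR adjusted p = 3.46e-07, 0.00585 and 0.0307). None of 9 tested laccases, which also polymerise lignin, was called by edgeR, DESeq2 or limma-voom in jazD against Col-0, with 0 higher and 1 lower at an unadjusted p under 0.05. The same held for 9 xylem markers, with 0 higher and 1 lower, and their summed level was 79.5 to 85.9 CPM in jazD and 86.9 to 94.7 CPM in Col-0. In jazD against jazQ, 2 of the 9 laccases and 3 of the 9 xylem markers fell, where 13.8% of all genes were called lower. LAC4 fell by 0.38 ± 0.11 and CESA4 by 0.46 ± 0.10 on the log2 scale (edgeR adjusted p = 0.0252 and 0.00322).

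Markers of leaf cell types also moved in jazD against Col-0, where 13.3% of all genes were called higher and 12.5% lower. Of 4 mesophyll markers 2 fell, RCA by 0.50 ± 0.07 and CA1 by 0.42 ± 0.11 (edgeR adjusted p = 0.000118 and 0.0172), and the list summed to 36500 to 37200 CPM in jazD and 39600 to 41100 CPM in Col-0. Of 5 trichome markers 2 rose, GL2 by 0.31 ± 0.11 and GL3 by 1.34 ± 0.41 (edgeR adjusted p = 0.049 and 0.0299), with sums of 19.7 to 24 CPM in jazD and 16.3 to 18.4 CPM in Col-0; DESeq2 and limma-voom each called 1 of them. Of 6 guard cell markers FAMA rose by 0.39 ± 0.10 and KAT1 fell by 0.68 ± 0.12 (edgeR adjusted p = 0.00895 and 0.00125), with sums of 59.3 to 67.1 CPM in jazD and 62 to 70.6 CPM in Col-0. KAT1 (AT5G46240) also lies in the chromosome 5 stretch named above, and the part of that stretch in its fall was not tested. No marker of these lists was at 0 counts in jazD or Col-0. The part of these cell types in the changes of the members was not tested.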

How the data were processed

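The authors deposited expected counts per gene, estimated by RSEM 1.2.25 per the file headers, and TPM values for the same 9 libraries. The submitters' processing notes name the genome TAIR10. No aligner, strandedness or annotation version is given in the sources. Groups came from the sample titles. The members, gene lists and alternatives were chosen with earlier results of these data known.

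After rounding, the deposited expected counts entered edgeR 4.0.16 (R 4.3.3). The filter was filterByExpr with a minimum count of 10, scaling was by TMM, and 1 robust quasi-likelihood fit to all 9 libraries gave the 3 contrasts. Benjamini-Hochberg adjustment ran over 19405 genes. The standard error is the one the F statistic implies. Reads carry no molecular identifiers, so intervals and floors cover counting error only.

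Values in every library are given for the 12 largest rises and every fall called in jazD against Col-0, for members called in jazQ and for the 5 most abundant in Col-0. AT4G37530 was shown as well, as the neighbour of AT4G37520.

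Alternatives were DESeq2 size factors, DESeq2 1.42.0, limma-voom (limma 3.58.1), other filters, fits of 2 groups, a replicate block, log2 TPM, and each library left out. All 67 members matched the RefSeq annotation of TAIR10.1, the source of domains, coordinates and sequences; the deposited tables hold no coordinates. Sequences were compared with Biopython 1.88. Protein sequences were not used here.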

Additional observations from a re-analysis of the deposited data

How the results depend on the processing

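Of the counts of members called, those in jazD against Col-0 were 9 higher with a mean of at least 5 CPM (15 members tested), and leaving out 1 library at a time gave 12 to 14 higher and 1 to 4 lower. In jazQ against Col-0 the members lower numbered 4 with the replicate block and 1 with limma on log2(TPM + 0.1), and leaving out 1 library gave 1 to 3 lower and 0 higher throughout. In jazD against jazQ a mean of at least 5 CPM gave 9 higher and 0 lower; DESeq2 and the fit of only the groups compared gave 0 lower; the replicate block and both TPM scales gave 2 lower; leaving out 1 library gave 14 to 15 higher and 0 to 1 lower. The cause of these differences was not tested, apart from the fewer members tested at 5 CPM. DOX1 and Prx37 passed the filter at 5 CPM through jazD. The shares of all genes called under these alternatives are not given here, so the counts do not set the members against other genes. Small changes that were not called turned round: AT1G71695 in jazD against Col-0 was -0.057 and -0.058 on log2 TPM with pseudocounts of 1 and 0.1, and between -0.046 and 0.055 with 1 library left out, below 0 without Col-0 replicate 2 or jazD replicate 2. AT2G37130 in jazQ against Col-0 was between -0.161 and 0.021 with 1 library left out, above 0 without Col-0 replicate 3 or jazQ replicate 1 or 2. RCI3 lost its call in jazD against Col-0 in 8 of 17 alternatives, PRX52 and AT4G11290 lost theirs with log2(TPM + 0.1), and so did Prx37 in jazQ; AT5G51890 lost its call without jazD replicate 2. In jazD against jazQ, RCI3 was not called without jazD replicate 3, nor AT2G38390 without jazQ replicate 2. With the replicate block, AT4G37520 was called lower in jazQ against Col-0 and AT2G38390 higher in jazD against Col-0 (adjusted p = 0.0239 and 0.047). Replicate numbers do not pair the libraries by the labels: same-numbered libraries of different genotypes correlated at 0.015 to 0.306 in their deviations from the genotype means, others at -0.245 to 0.088, and 9 of 9 libraries correlated best with one of their own number, a hint from the data only. Members with few counts, such as RCI3 and AT5G06730, limit what depth can show.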
